A study of Mus musculus with 9 samples.

Results

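The 10 genes described here encode the adaptors and the early machinery of autophagy: Sqstm1, Optn, Map1lc3a, Map1lc3b, Gabarap, Gabarapl1, Gabarapl2, Becn1, Ulk1 and Wipi1. They were chosen by name, and each was matched by its Ensembl identifier among the 53801 genes listed in the count data, of which 25402 had a count. RNA was sequenced from monocytes/macrophages sorted as CD11c-Ly6G-CD11b+CD45high cells from 9-week-old male C57BL/6J mice, in 3 libraries per group. Stroke brain libraries came from the ipsilesional hemisphere of mice with permanent distal middle cerebral artery occlusion (dMCAO) plus occlusion of the left common carotid artery, each a pool of 5 brains, and stroke blood libraries came from the blood of 1 such mouse each, both taken 5 days after dMCAO. Sham blood libraries came from 1 sham-operated mouse each, and the sources used here name no day for them. No sham brain group was analysed here, so tissue and injury cannot be told apart in the comparisons of brain with blood. Preparation differed too. Brain cells were released with a heated tissue dissociator and a Percoll gradient, and blood was fractionated on Ficoll. The effect of preparation cannot be told apart from that of tissue.

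Autophagy encloses part of the cytoplasm in a double membrane and delivers it to the lysosome. The ULK1 kinase starts the process, the lipid kinase complex that contains Beclin 1 then marks the membrane with phosphatidylinositol 3-phosphate, and WIPI proteins bind that lipid and recruit the conjugation enzymes. Small ubiquitin-like proteins of the ATG8 family (LC3 and GABARAP) are attached to the growing membrane, and adaptors such as sequestosome 1 (p62) and optineurin hold ubiquitin-tagged cargo to them. In macrophages part of this machinery also conjugates LC3 to phagosomes that hold engulfed cells, a process known as LC3-associated phagocytosis.

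Total counts were between 18475118 and 22623578 per library. Levels below are normalized CPM, counts per 1e6 counts of the library, with the library totals scaled by the trimmed mean of M values (TMM). Changes are log2 fold changes from the quasi-likelihood test of edgeR with Benjamini-Hochberg adjustment over all genes tested. A gene rose or fell where its adjusted p was below 0.05, and it was a differentially expressed gene (DEG) where its fold change was also above 2 in either direction. In bulk RNA, a change in the share of cells that make a transcript and a change in its amount per cell cannot be told apart. All 8 monocyte and macrophage markers (Itgam, Ptprc, Csf1r, Adgre1, Lyz2, Cd68, Ly6c2 and Ccr2) were above 3 counts in every library, but their levels differed between groups. The means of Itgam, Ptprc, Adgre1, Lyz2, Ly6c2 and Ccr2 were lower in the brain than in stroke blood, and those of Csf1r and Cd68 were higher. Mean Lyz2 was 38101 CPM in the brain and 97844 CPM in stroke blood, Ly6c2 831 and 2663 CPM, and Cd68 1500 and 1039 CPM.

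Markers of some other cell types moved with the groups. The summed level of 6 erythroid genes was 3.80 to 13.7 CPM in the brain libraries and 14068 to 20411 CPM in stroke blood. In sham blood it was 1248 CPM in replicate 1, 33799 CPM in replicate 2 and 31060 CPM in replicate 3. Sham blood replicate 1 therefore stood apart, and its 5 platelet genes were also low, at 11.4 CPM against 322 and 483 CPM in sham replicates 2 and 3. The 6 neutrophil markers summed to 3011 CPM in sham blood replicate 3 and to between 462 and 1003 CPM in the other libraries. Their single levels moved in opposite directions. Camp, S100a8 and S100a9 were higher in every brain library than in every stroke blood library, and Retnlg overlapped. Mmp8 was lower, at 110 to 145 CPM in the brain and 418 to 475 CPM in stroke blood, and Ly6g held at most 14 counts. The 8 microglial markers summed to 1212, 1793 and 3360 CPM in the 3 brain libraries and to between 149 and 208 CPM in the 6 blood libraries, where the microglial transcription factor gene Sall1 was at 0. The 4 dendritic cell markers summed to between 185 and 282 CPM in the brain and between 51.5 and 85.4 CPM in blood. For the 6 T and NK cell markers the sums were 540 to 1119 CPM and 209 to 813 CPM, and for the 4 B cell markers 43.8 to 85.6 CPM and 65.3 to 235 CPM. Gzma and Nkg7 made up most of the T and NK sum. The means of the T cell genes Cd3e, Cd3d and Cd3g were 3.52, 7.22 and 10.1 CPM in the brain. They were 1.34, 2.32 and 2.74 CPM in stroke blood and 5.12, 7.61 and 8.11 CPM in sham blood. The 4 border-associated macrophage markers summed to 952 to 1144 CPM in the brain and 1562 to 3935 CPM in blood. Most of this was F13a1, whereas Mrc1, Lyve1 and Cd163 were higher in the brain. Of the neural genes, Syt1 was at 0 in all 9 libraries. Snap25 and Aqp4 were at 0 in blood and reached 8 and 3 counts in a brain library, and Gfap reached 24 counts in the brain and 5 in blood. Mbp was at 117 to 174 CPM in the brain and 168 to 328 CPM in blood. The part of these other cells in the results below was not tested, and values given beside it are descriptions only.

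The ATG8 proteins are made as precursors that the ATG4 proteases cut after a glycine near the end, and the exposed glycine is then joined to the membrane lipid. The last 30 coding bases of each member, stop codon included, are shown because they hold this site and show how the 5 members differ around it. They are from the GENCODE M21 transcripts, and capitals mark the glycine codon.
Map1lc3a: tacgcctcccaagaaaccttcGGCttctga
Map1lc3b: gagacattcGGGacagcaatggctgtgtaa
Gabarap: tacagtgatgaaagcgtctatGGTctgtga
Gabarapl1: tacagtgatgaaagtgtctatGGAaaatga
Gabarapl2: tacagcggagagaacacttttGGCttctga
Map1lc3b has 5 codons between the glycine and the stop codon, and each of the other 4 has 1. Over the whole coding sequence Map1lc3a and Map1lc3b were 74.7% identical and Gabarap and Gabarapl1 74.9%, while Map1lc3b and Gabarap were 50.6% identical. No stretch of 75 bases, the read length, was shared between any of the 10 genes, so their reads could not be exchanged with one another.

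Comparison of stroke brain with stroke blood addressed how the cells of this sort differ between the injured brain and the blood. The paper states that its brain sort could not separate activated resident microglia from macrophages derived from monocytes. Sqstm1 rose about 2-fold in the brain, whereas 3 of the 5 ATG8 family genes, Map1lc3b, Gabarap and Gabarapl2, fell. Of the 10 genes, 4 (40.0%) passed the test, against 30.6% of the 13189 genes tested. The 3 that fell are to be read against 13.1% of all genes that fell, and the 1 that rose against 17.5% that rose. Only Sqstm1 among the 10 was a DEG, a call made for 21.0% of all genes tested. The groups did not overlap for 5 of the 10 genes, as for 48.2% of all genes tested, with 2 higher in the brain (24.9% of all genes) and 3 lower (23.2%). The median log2 fold change of the 10 genes was 0.04, and that of all genes tested 0.06.

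**Figure D1:**
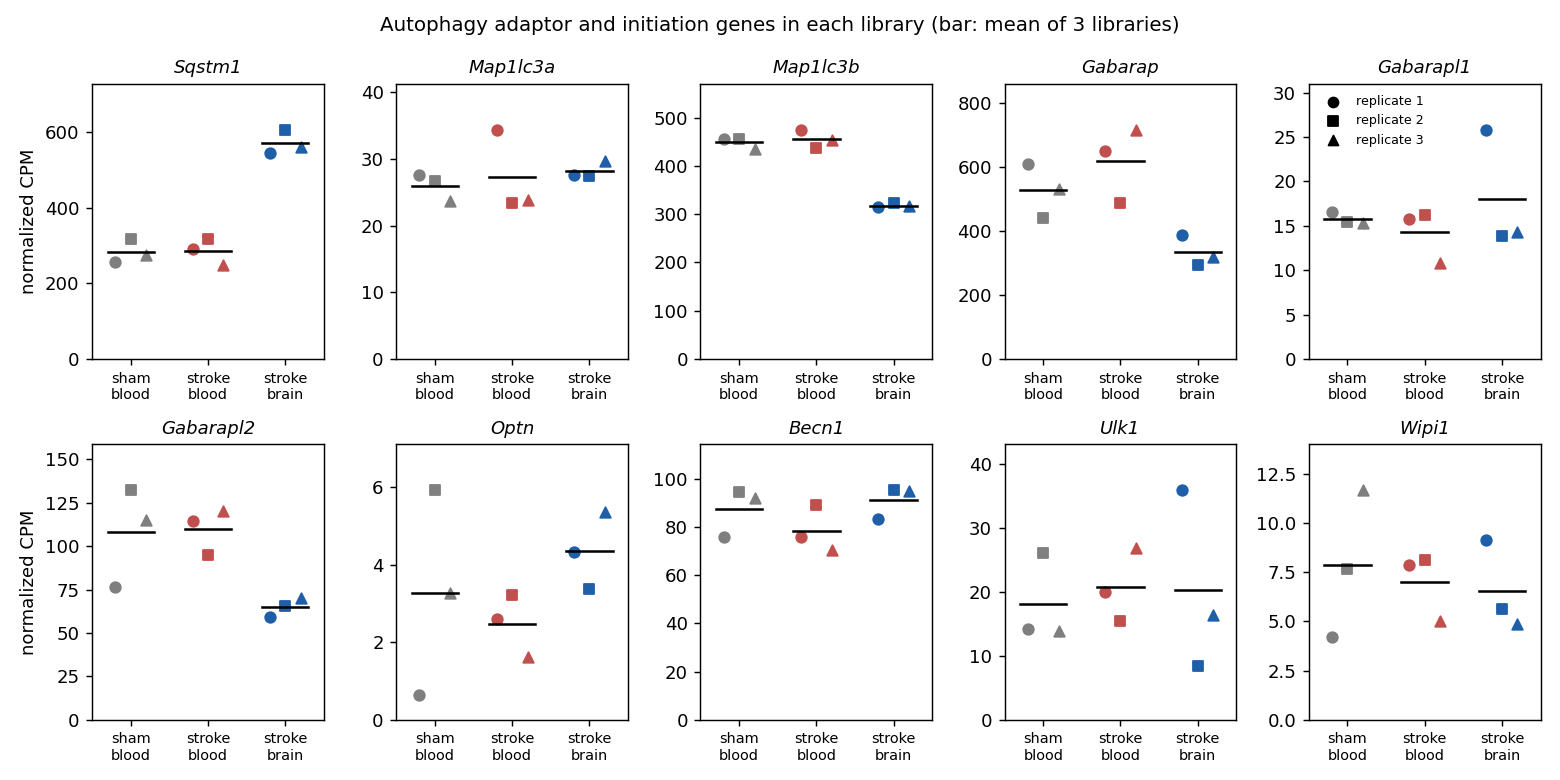
Normalized CPM (vertical axis, from 0, a separate scale for each gene) of the 10 genes in the 3 libraries of each group (horizontal axis); point shape gives the replicate and the bar the mean. The 3 brain libraries lie above all 6 blood libraries for Sqstm1, at 545 to 607 CPM, and below them for Map1lc3b, Gabarap and Gabarapl2.

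Among the adaptors, Sqstm1 encodes sequestosome 1, which binds ubiquitin-tagged cargo, links it to LC3 and is degraded with it. It lies on chromosome 11 from 50199366 to 50210827 on the minus strand (GRCm38). Its level was 545, 607 and 561 CPM in the brain libraries, 292, 319 and 250 CPM in stroke blood and 258, 317 and 276 CPM in sham blood. The brain libraries were all higher than every blood library, and the blood groups overlapped. The mean was 571 ± 32.1 CPM in the brain and 287 ± 34.7 CPM in stroke blood (SD, n = 3 libraries each), a log2 fold change of 1.02 (SE 0.16, edgeR adjusted p = 0.0014). The fold of 2.03 was close to the DEG threshold. Sqstm1 passed the test under all 15 alternative settings, but its fold stayed above 2 in 10 of them, and it was not without stroke blood replicate 3 (log2 0.90), without brain replicate 2 (log2 0.99) or with 3 other scalings or fits, the lowest value being 0.88 with upper-quartile scaling. Of the 75-base stretches of Sqstm1, 14.6% are also on the opposite strand in Mrnip, and the strand setting of the counting is not given in the sources used here. Mrnip held 3 to 23 counts per library, against 4175 to 14627 for Sqstm1.

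The RefSeq promoter window of Sqstm1 is shown because it belongs to the only DEG among the 10 genes, and that of Gabarapl2 because it belongs to a member that fell. Each line gives the 250 bases before the annotated start, 5′ to 3′ on the strand of the gene (GRCm38.p6), with the GC box GGGCGG in capitals in either orientation. The Sqstm1 window is chr11:50210821-50211070 on the minus strand, and the Gabarapl2 window is chr8:111940453-111940702 on the plus strand.
Sqstm1: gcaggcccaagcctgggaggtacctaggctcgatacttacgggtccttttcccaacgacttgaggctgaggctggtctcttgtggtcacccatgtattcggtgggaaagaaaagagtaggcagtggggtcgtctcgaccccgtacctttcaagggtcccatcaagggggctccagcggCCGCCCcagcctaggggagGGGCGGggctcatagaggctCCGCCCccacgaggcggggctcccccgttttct
Gabarapl2: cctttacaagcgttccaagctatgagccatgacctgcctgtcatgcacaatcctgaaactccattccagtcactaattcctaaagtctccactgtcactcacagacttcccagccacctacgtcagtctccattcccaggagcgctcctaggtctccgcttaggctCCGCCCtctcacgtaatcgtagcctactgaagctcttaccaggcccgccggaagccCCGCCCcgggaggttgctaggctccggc
The Sqstm1 window held 3 GC boxes and the Gabarapl2 window held 2, and 32.7% of the 32851 promoter windows of this length held at least 1. Gabarap, which also fell, held 0 and Map1lc3b held 1. Of the members that did not pass, Optn held 1, Gabarapl1 2, Ulk1 5 and Wipi1 8. The antioxidant response element core TGACNNNGC was in 10.2% of all windows, the palindrome TCACGTGA bound by TFEB in 0.785% and the E-box CACGTG, which TCACGTGA contains, in 6.02%, searched on both strands. None of these 3 was found in the windows of the 8 members with an entry, which says only that these letters are not in those 250 bases. Map1lc3a and Becn1 had no entry.

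Optn encodes optineurin, a ubiquitin-binding receptor for damaged mitochondria and bacteria. It had the fewest counts of the 10 genes, between 13 and 127 per library. Its level was 4.33, 3.36 and 5.36 CPM in the brain, 2.60, 3.22 and 1.62 CPM in stroke blood and 0.65, 5.91 and 3.26 CPM in sham blood. The brain libraries were higher than all stroke blood libraries, but the sham libraries spanned both groups, with the lowest value in the replicate that was also low in erythroid genes. The log2 fold change from stroke blood to brain was 0.83 (95% interval -0.11 to 1.78, edgeR adjusted p = 0.163), so that no difference could be detected with these counts.

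In the LC3 branch, Map1lc3b encodes LC3B, the ATG8 protein most often used to follow autophagosomes. It lies on chromosome 8 from 121590361 to 121598760 on the plus strand. Its level was 314, 324 and 316 CPM in the brain, 475, 437 and 454 CPM in stroke blood and 456, 455 and 434 CPM in sham blood. The groups of blood libraries overlapped, and the brain libraries were all lower. The mean was 318 ± 5.22 CPM in the brain and 455 ± 19.1 CPM in stroke blood (SD, n = 3), a log2 fold change of -0.48 (SE 0.13, edgeR adjusted p = 0.0216). This call was lost when stroke blood replicate 1, brain replicate 2 or brain replicate 3 was left out, with edgeR adjusted p of 0.0678, 0.0794 and 0.0889 and log2 fold changes from -0.49 to -0.47, and with scaling by library size only (log2 fold change -0.33, adjusted p = 0.0872). Of its 75-base stretches, 4.09% are also in other genes, mostly processed pseudogenes, of which Gm6055 held 108 to 183 counts per library against 6450 to 9771 for Map1lc3b.

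Map1lc3a encodes LC3A and lies on chromosome 2 from 155276297 to 155278073 on the plus strand. Its level was 27.5, 27.4 and 29.6 CPM in the brain, 34.4, 23.4 and 23.9 CPM in stroke blood and 27.5, 26.7 and 23.6 CPM in sham blood. The groups overlapped, with a log2 fold change from stroke blood to brain of 0.09 (95% interval -0.38 to 0.55, edgeR adjusted p = 0.785) that was negative under upper-quartile scaling (-0.07).

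In the GABARAP branch, Gabarap had the highest mean CPM of the ATG8 family in each group, although Map1lc3b was higher in brain replicate 2 and in sham blood replicate 2. Its protein acts late in the closure of autophagosomes and in their fusion with lysosomes. The gene lies on chromosome 11 from 69991143 to 69994951 on the plus strand. Its level was 386, 294 and 318 CPM in the brain, 648, 485 and 716 CPM in stroke blood and 607, 439 and 532 CPM in sham blood. Each brain library was lower than each blood library, and the blood libraries were spread more widely than for Map1lc3b. The mean was 333 ± 47.4 CPM in the brain and 616 ± 118 CPM in stroke blood (SD, n = 3), a log2 fold change of -0.85 (SE 0.18, edgeR adjusted p = 0.0074). The call held under all 15 alternatives, with log2 fold changes from -1.03 to -0.69.

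Gabarapl2, which encodes GATE-16, a relative of GABARAP that also serves in Golgi traffic, lies on chromosome 8 from 111940703 to 111953612 on the plus strand. Its level was 59.2, 65.4 and 69.9 CPM in the brain, 114, 94.9 and 120 CPM in stroke blood and 76.6, 132 and 115 CPM in sham blood. The brain libraries were again the lowest, and the nearest blood library was sham replicate 1, the one low in erythroid genes. From stroke blood to brain the log2 fold change was -0.72 (SE 0.16, edgeR adjusted p = 0.0078), and the call held under all 15 alternatives. The fall moved with the erythroid sum, and the part of erythroid RNA in it was not tested. Sham replicate 1, with an erythroid sum of 1248 CPM against 31060 and 33799 CPM, held 607 CPM of Gabarap and 456 CPM of Map1lc3b, the highest values of its group for both genes. Of the 75-base stretches of Gabarapl2, 9.53% are also in processed pseudogenes, the most counted of which, Gm3724, held 20 to 60 counts per library against 1216 to 2839.

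Gabarapl1, the close relative of Gabarap, lies on chromosome 6 from 129533160 to 129542346 on the plus strand. Its level was 25.9, 13.9 and 14.3 CPM in the brain, 15.7, 16.3 and 10.8 CPM in stroke blood and 16.6, 15.5 and 15.3 CPM in sham blood. Brain replicate 1 was the highest of the 9 libraries, and the other two brain libraries lay within the range of stroke blood. The log2 fold change from stroke blood to brain was 0.37 (95% interval -0.33 to 1.07, edgeR adjusted p = 0.399), and it was 0.01 without brain replicate 1. Of its 75-base stretches, 20.5% are also on the opposite strand in 1700101I11Rik, which held at most 5 counts.

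Of the 3 initiation genes, Becn1, Ulk1 and Wipi1, none passed the test. Becn1 encodes Beclin 1, the regulatory subunit of the class III phosphatidylinositol 3-kinase, and lies on chromosome 11 from 101285952 to 101302286 on the minus strand. Its level was 83.3, 95.2 and 94.8 CPM in the brain, 75.9, 89.3 and 70.4 CPM in stroke blood and 76.0, 94.4 and 92.0 CPM in sham blood. The 3 groups overlapped, with a log2 fold change from stroke blood to brain of 0.25 (95% interval -0.12 to 0.62, edgeR adjusted p = 0.290). Of its 75-base stretches, 33.6% are also on the opposite strand in Cntd1, which held 0 to 3 counts.

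Ulk1 encodes the kinase that responds to nutrient and energy signals, and it lies on chromosome 5 from 110784488 to 110810097 on the minus strand. Its level was 35.9, 8.42 and 16.3 CPM in the brain, 20.0, 15.5 and 26.9 CPM in stroke blood and 14.3, 26.0 and 13.9 CPM in sham blood. The brain held both the highest and the lowest of the 9 values. The log2 fold change from stroke blood to brain was 0.00 (95% interval -1.02 to 1.03, edgeR adjusted p = 0.996), and it was -0.71 without brain replicate 1 (adjusted p = 0.146) and -0.15 under upper-quartile scaling. This interval leaves room for a fold of 2 in either direction.

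Wipi1 encodes a propeller protein that binds phosphatidylinositol 3-phosphate on the forming membrane, and it lies on chromosome 11 from 109573331 to 109611967 on the minus strand. Its level was 9.15, 5.64 and 4.88 CPM in the brain, 7.90, 8.10 and 5.03 CPM in stroke blood and 4.23, 7.68 and 11.7 CPM in sham blood. The groups overlapped, with a log2 fold change from stroke blood to brain of -0.07 (95% interval -0.88 to 0.74, edgeR adjusted p = 0.906) that was 0.09 with scaling by library size only.

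**Figure D2:**
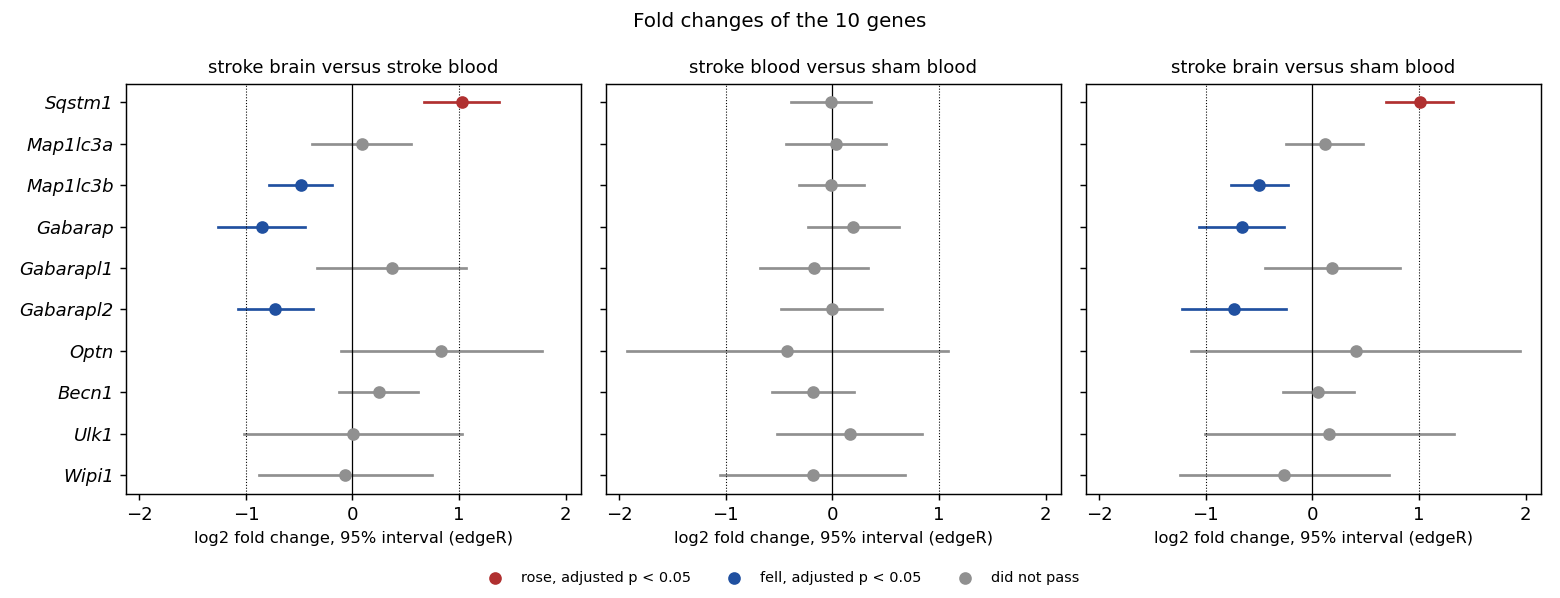
Log2 fold changes of the 10 genes from edgeR (horizontal axis; lines, 95% intervals; dotted lines, a fold of 2) in stroke brain versus stroke blood, stroke blood versus sham blood and stroke brain versus sham blood; colour gives the call at an adjusted p below 0.05. Sqstm1 lies at 1.02, -0.01 and 1.01 in the 3 comparisons, and the intervals of Optn, Ulk1 and Wipi1 are the widest.

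Comparison of stroke blood with sham blood addressed whether circulating monocytes changed after stroke. None of the 10 genes passed the test in edgeR or in DESeq2, and 0 had an unadjusted p below 0.05. Of all 12664 genes tested, 0.0079% passed, which is 1 gene, Serpinb10, a serine protease inhibitor, named after its values were seen. At an unadjusted p below 0.05, 1581 genes passed, and DESeq2 called 191 genes. The groups overlapped for all 10 genes, whereas they did not for 18.1% of all genes tested. The log2 fold changes lay between -0.42 for Optn and 0.19 for Gabarap. The narrowest interval was that of Map1lc3b, at -0.01 (95% interval -0.32 to 0.30), and the widest that of Optn, from -1.93 to 1.08. For Sqstm1 the value was -0.01 (95% interval -0.39 to 0.36).

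Comparison of stroke brain with sham blood shares the brain libraries with the first comparison, so it is not independent of it. Sqstm1 rose (log2 fold change 1.01, SE 0.14, edgeR adjusted p = 0.0034), and Map1lc3b (-0.50, adjusted p = 0.0218), Gabarap (-0.66, adjusted p = 0.0332) and Gabarapl2 (-0.74, adjusted p = 0.0449) fell. The 4 genes that passed are to be read against 19.8% of the 13020 genes tested (12.1% rose and 7.68% fell), and the DEG Sqstm1 against 13.4% (9.75% higher). The groups did not overlap for the same 4 genes, 1 higher and 3 lower, against 41.2% of all genes tested (22.1% higher and 19.0% lower). Sqstm1 passed under all 15 alternatives, with a fold above 2 in 10 of them, and its log2 fold change was 0.94 without sham replicate 1, 0.98 without sham replicate 3 and 0.96 without brain replicate 2. The other calls depended on single libraries. Of the 6 fits that each left 1 library out, Map1lc3b lost its call in 3 (sham replicate 2 and brain replicates 2 and 3), Gabarap in 4 (sham replicates 1 and 3 and brain replicates 2 and 3) and Gabarapl2 in 5, all but the one without sham replicate 1. Over these fits the log2 fold changes were -0.53 to -0.48 for Map1lc3b, -0.79 to -0.54 for Gabarap and -0.93 to -0.57 for Gabarapl2. All 3 also lost their call with scaling by library size only, with edgeR adjusted p of 0.0510, 0.0628 and 0.0826.

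The level of Sqstm1 was also set against that of the ATG8 genes within each library. Such a ratio does not depend on the scaling of the library, but it shows only a change of one part relative to the other. In normalized CPM, which do depend on the scaling, the 5 ATG8 genes summed to 812, 725 and 748 CPM in the brain, 1288, 1057 and 1324 CPM in stroke blood and 1184, 1068 and 1120 CPM in sham blood. Sqstm1 was 0.671, 0.837 and 0.750 of this sum in the brain libraries, 0.227, 0.302 and 0.189 in stroke blood and 0.218, 0.297 and 0.246 in sham blood. The lowest brain value was above the highest blood value. Against Map1lc3b alone, Sqstm1 was 1.80 ± 0.07 in the brain, 0.631 ± 0.09 in stroke blood and 0.633 ± 0.07 in sham blood (SD, n = 3), so that the more counted of the pair was Map1lc3b in blood and Sqstm1 in the brain. These ratios were chosen after the values of their parts were seen and were not tested. They are ratios of RNA counts and hold no measure of protein or of the rate of degradation.

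**Figure D3:**
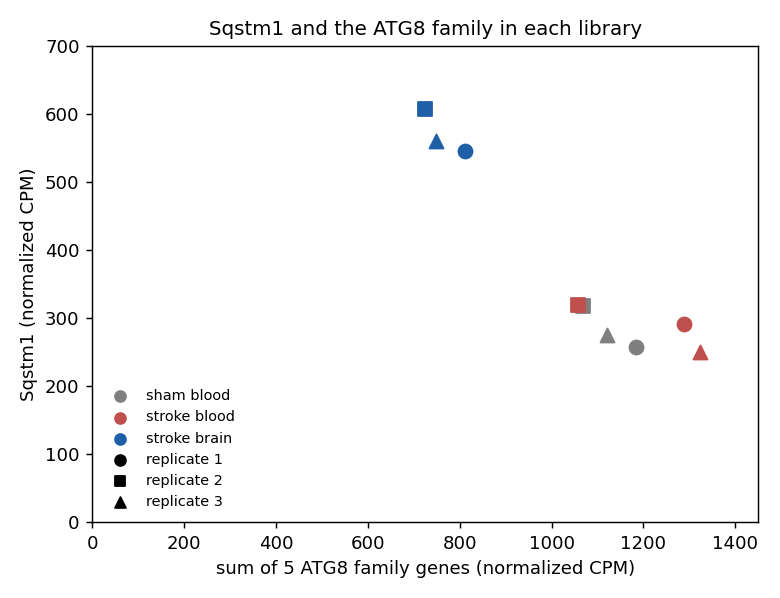
Sqstm1 (vertical axis, normalized CPM) against the sum of the 5 ATG8 family genes (horizontal axis, normalized CPM) in each of the 9 libraries; colour gives the group and shape the replicate. The brain libraries lie at 725 to 812 CPM of ATG8 genes and 545 to 607 CPM of Sqstm1, apart from the blood libraries, and the sham and stroke blood libraries are mixed.

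Within the ATG8 family, shares were computed per kb of exon so that long genes do not count for more. The exon length merges the exons of all annotated transcripts, 7517 bases for Map1lc3b and 1844 bases for Gabarap. It can be longer than the transcripts that the cells make, so the size of each share depends on it. Gabarap took 63.5 ± 3.05% of the family in the brain, 70.5 ± 3.19% in stroke blood and 67.4 ± 5.40% in sham blood (SD, n = 3). Its share was lower in every brain library than in every stroke blood library, but the range of sham blood, 61.7% to 72.4%, spanned most of both. Map1lc3b took 13.4% to 16.5% in the brain, 11.5% to 14.9% in stroke blood and 13.4% to 15.7% in sham blood, and Gabarapl2 took 9.93 ± 1.55%, 10.0 ± 0.371% and 11.2 ± 3.77% in the same order. The groups overlapped for both. Map1lc3a took 8.47 ± 0.887% in the brain against 4.91 ± 0.995% in stroke blood and 5.24 ± 0.573% in sham blood. Gabarapl1 took 3.11 ± 0.869%, 1.55 ± 0.527% and 1.87 ± 0.107%. The ranges of the brain and the blood libraries did not overlap for either Map1lc3a or Gabarapl1, whose own levels did not pass the test. A share also moves when the other members change, and Map1lc3b, Gabarap and Gabarapl2 fell in the brain.

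**Figure D4:**
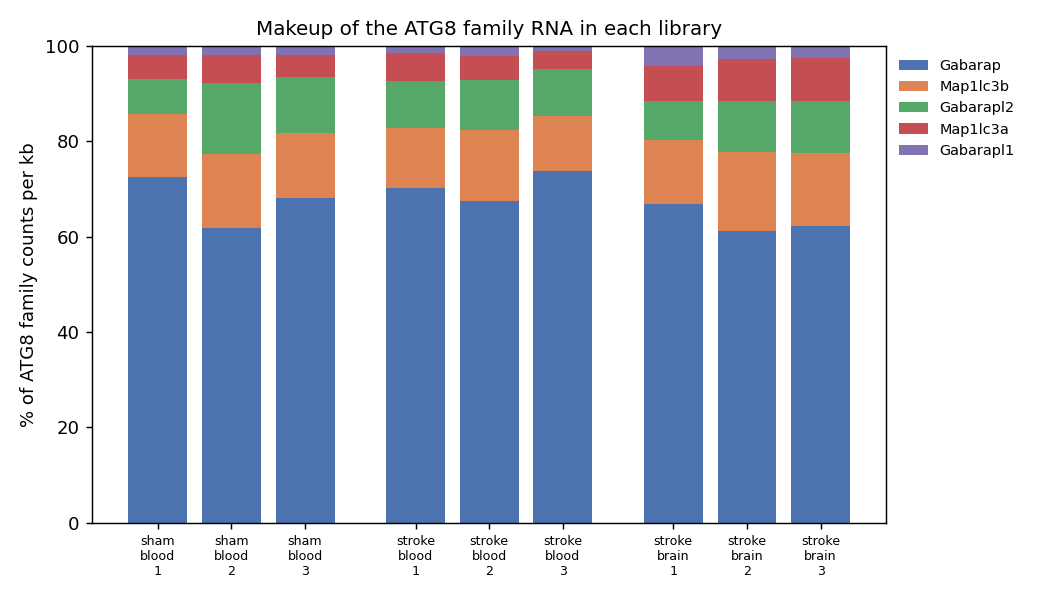
Share of each ATG8 family gene in the counts per kb of the family (vertical axis, %) in each of the 9 libraries (bars; group and replicate below). Gabarap is the largest part of every bar, at 61.2% to 73.8%, and Map1lc3a and Gabarapl1 take larger shares in the 3 brain bars. Without length scaling, Map1lc3b takes more than Gabarap in brain replicate 2 (44.7% against 40.6%) and sham blood replicate 2 (42.6% against 41.1%).

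Per kb of exon, the order of the mean levels was the same in all 3 groups: Gabarap, Sqstm1, Map1lc3b, Gabarapl2, Map1lc3a, Becn1, Gabarapl1, Ulk1, Wipi1 and Optn. This order depends on the merged exon length of each gene. In normalized CPM, without the length, Sqstm1 had the highest mean in the brain (571 CPM), above Gabarap (333 CPM) and Map1lc3b (318 CPM). In stroke blood Gabarap was at 334 ± 64.2 and Sqstm1 at 85.4 ± 10.3 CPM per kb, while in the brain they were at 180 ± 25.7 and 170 ± 9.57 CPM per kb and their ranges overlapped (SD, n = 3). Of the other neighbours in the order, Becn1 and Gabarapl1 overlapped in the brain, and Ulk1, Wipi1 and Optn overlapped in the brain and in sham blood. The remaining neighbours had ranges that did not overlap within a group. The last gene, Optn, was at 1.16 ± 0.266 CPM per kb in the brain.

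The 10 genes belong to a wider list of 67 autophagy genes in 8 roles, of which 66 were tested. From stroke blood to brain, 7 of the 66 rose and 8 fell, or 22.7% in all, against 30.6% of all genes tested, and 3 and 2 of these were DEGs, against 13.1% of all genes that were higher DEGs and 7.86% that were lower ones. Without the 10 genes, 6 of 56 rose and 5 fell. The median log2 fold change of the list was 0.01, against 0.06 for all genes tested. The count of 15 was 9 without stroke blood replicate 1 and 9 without brain replicate 2. Against sham blood 3 rose and 8 fell in the brain, or 16.7% against 19.8% of all genes tested. Between stroke and sham blood 0 of 66 passed with edgeR, and 7 of the 66 had an unadjusted p below 0.05, as had 1581 of all 12664 genes tested.

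**Figure D5:**
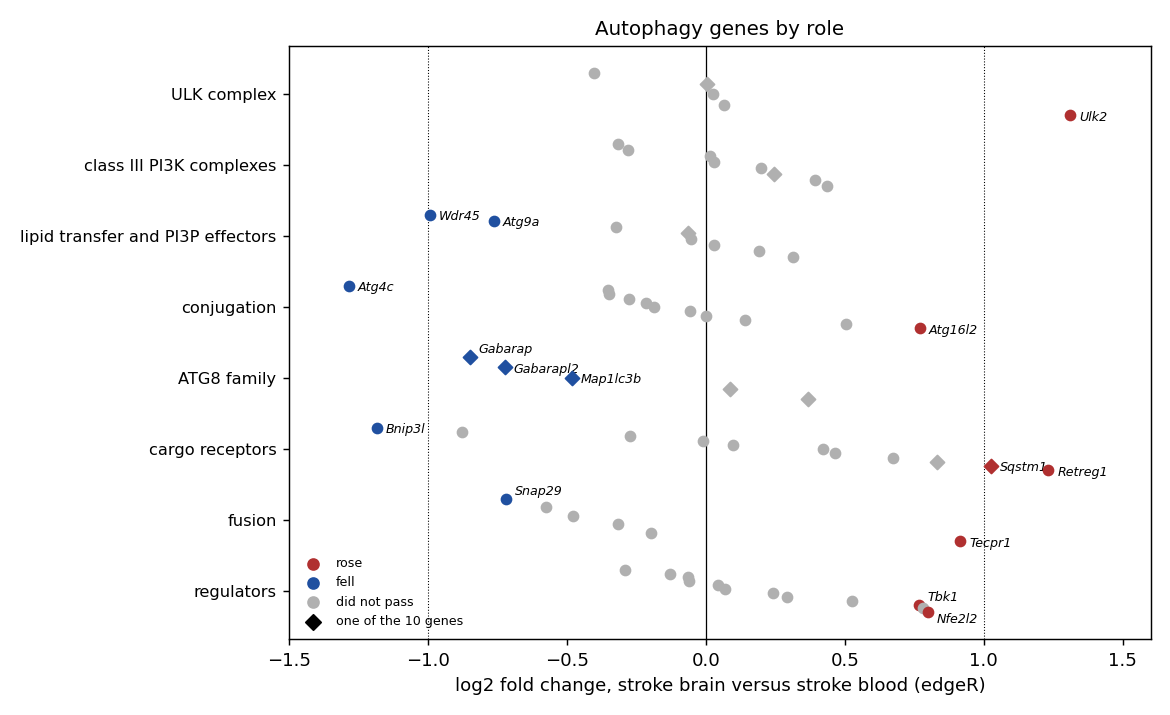
Log2 fold change from stroke blood to brain (horizontal axis, edgeR; dotted lines, a fold of 2) of the 66 autophagy genes tested, arranged by role (rows); colour gives the call at an adjusted p below 0.05 and diamonds mark the 10 genes. The 3 ATG8 genes that fell lie between -0.85 and -0.48, and the class III PI3K row has no gene that passed.

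By role, the counts from stroke blood to brain are to be read against the 17.5% of all genes tested that rose and the 13.1% that fell. In the ULK complex 1 of 5 genes rose and none of the 8 class III phosphatidylinositol 3-kinase genes passed with edgeR, 1 of which, Uvrag, had an unadjusted p below 0.05. Of the 8 lipid transfer and lipid effector genes 2 fell, and of the 11 conjugation genes 1 rose and 1 fell. Of the 5 ATG8 genes 3 fell, of the 11 cargo receptors 2 rose and 1 fell, of the 6 fusion genes 1 rose and 1 fell, and of the 12 regulators tested 2 rose. Beside the 3 of 5 in the ATG8 family, the share that passed was 33.3% in the fusion genes and 27.3% or less in each of the other roles, against 30.6% of all genes tested. Apart from the 10 genes, the DEGs were Ulk2 and Retreg1, which rose, and Bnip3l and Atg4c, which fell.

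Ulk2, the kinase closest to Ulk1, was at 35.2, 32.1 and 42.3 CPM in the brain, 13.3, 11.8 and 20.3 CPM in stroke blood and 10.8, 34.2 and 30.1 CPM in sham blood. It rose against stroke blood (log2 fold change 1.31, SE 0.24, edgeR adjusted p = 0.0037), but the sham libraries overlapped the brain, and it did not pass against sham blood (0.54, edgeR adjusted p = 0.358). Atg4c, one of the proteases that cut the ATG8 precursors, was at 11.1, 12.9 and 12.2 CPM in the brain and between 23.5 and 36.7 CPM in the 6 blood libraries. It fell against stroke blood (-1.28, SE 0.23, edgeR adjusted p = 0.0029) and against sham blood (-1.34, adjusted p = 0.0052), in every alternative.

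Among the cargo receptors, Bnip3l, which tags mitochondria for removal and does so in maturing red cells, was at 129, 130 and 151 CPM in the brain, 350, 297 and 307 CPM in stroke blood and 214, 395 and 345 CPM in sham blood. It fell against stroke blood (log2 fold change -1.19, SE 0.15, edgeR adjusted p = 0.0005) and against sham blood (-1.22, adjusted p = 0.0106). Its lowest blood value was in sham replicate 1, the library low in erythroid genes, and that value was above all brain values. The part of erythroid RNA in the fall of Bnip3l was not tested. Retreg1, a receptor for turnover of the endoplasmic reticulum, was at 96.1, 61.0 and 51.7 CPM in the brain, 40.1, 21.8 and 29.5 CPM in stroke blood and 17.8, 18.9 and 11.5 CPM in sham blood. It rose against stroke blood (1.23, SE 0.29, edgeR adjusted p = 0.0116) and against sham blood (2.11, adjusted p = 0.0040). The first of these calls was lost without stroke blood replicate 2 or replicate 3, with adjusted p up to 0.0594.

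The gene with the lowest adjusted p was taken from each of the other roles. Nfe2l2, the transcription factor NRF2, whose inhibitor KEAP1 is bound by sequestosome 1, was at 483, 389 and 333 CPM in the brain, 224, 261 and 225 CPM in stroke blood and 277, 211 and 240 CPM in sham blood. It rose against stroke blood (log2 fold change 0.80, edgeR adjusted p = 0.0093) in every alternative and against sham blood (0.72, adjusted p = 0.0287), where 4 of the 6 fits that left 1 library out lost the call, those without sham replicates 2 or 3 and without brain replicates 1 or 2. Tecpr1, which acts in the fusion of autophagosomes with lysosomes, rose against stroke blood (0.91, edgeR adjusted p = 0.0067) and did not pass against sham blood (0.71, adjusted p = 0.0970). Wdr45, a relative of Wipi1, was at 7.50, 4.07 and 6.71 CPM in the brain and 13.5, 11.9 and 11.8 CPM in stroke blood and fell (-0.99, edgeR adjusted p = 0.0333), a call that was lost without any 1 of the 3 stroke blood libraries or of brain replicates 2 and 3, and with library size only (adjusted p = 0.0634). Wdr45 did not pass against sham blood (-0.67, edgeR adjusted p = 0.150). Uvrag, a partner of Beclin 1, did not pass (0.39, edgeR adjusted p = 0.117), but it did with library size only (0.55, adjusted p = 0.0440).

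The other 4 genes of the list that passed against stroke blood fall outside the naming rule and were added after their values were seen. Tbk1, the kinase that phosphorylates optineurin and sequestosome 1, rose (log2 fold change 0.77, edgeR adjusted p = 0.0226), as did Atg16l2, a relative of the conjugation scaffold Atg16l1 (0.77, adjusted p = 0.0191). Atg9a, the lipid scramblase of the vesicles that seed the membrane, fell (-0.76, edgeR adjusted p = 0.0414), as did the SNARE gene Snap29 (-0.72, adjusted p = 0.0482). Each of these calls was lost in 3 to 5 of the 6 fits that left 1 library out, with adjusted p up to 0.160. For Tbk1 these were the fits without stroke blood replicates 1 or 3 or brain replicate 2, and for Atg16l2 those without stroke blood replicate 1 or brain replicates 2 or 3. For Atg9a and Snap29 they were the fits without any 1 of the stroke blood libraries, and also without brain replicates 2 or 3 (Atg9a) or 1 or 2 (Snap29). With the replicate number as a block, Atg9a (adjusted p = 0.0559) and Atg16l2 (0.0509) did not pass. With library size only, Atg9a (adjusted p = 0.0936) and Snap29 (0.0995) did not pass, nor did Snap29 without the filter on low counts (0.0555). Against sham blood Tbk1 (0.41, edgeR adjusted p = 0.102), Atg16l2 (0.28, adjusted p = 0.281) and Snap29 (-0.60, adjusted p = 0.113) did not pass. The fall of Atg9a against sham blood (-1.42, edgeR adjusted p = 0.0115) held in all 15 alternatives.

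The genes with profiles most like that of Sqstm1 over the 9 libraries were found among 7929 genes by the root mean square difference of the log2 CPM of each library after the mean of each gene was removed. The nearest was Efhd2, which encodes a calcium-binding protein, at 0.11, followed by Lat2, an adaptor of immune receptor signalling, at 0.13, and Hnrnpab, an RNA-binding protein gene, at 0.13. Efhd2 was at 1058 ± 53.2 CPM in the brain, 522 ± 26.6 CPM in stroke blood and 528 ± 19.2 CPM in sham blood (SD, n = 3). Lat2 overlaps Rfc2, and Hnrnpab overlaps Phykpl, on the opposite strand. Because the libraries fall into 3 groups, this measure mostly ranks genes by their level in the brain against blood.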

How the data were processed

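RNA-seq counts of 9 libraries of sorted monocytes/macrophages were used, grouped by the tissue and surgery in their labels. The authors mapped reads to GRCm38 (HISAT2) and assigned them to genes (HTSeq), and the deposited values are the raw counts. Software versions, annotation release and strand setting are not given in the sources used here. Symbols, exon lengths and overlaps came from GENCODE M21 (53706 of the 53801 identifiers matched, 52142 of these at identical coordinates), and promoter windows from RefSeq, with 8 of the 10 genes matched. Replicates are separate mice or pools, and no pair of a group agreed within sampling noise (chi-square over its degrees of freedom, 26 to 152).

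Pairs of groups were compared with edgeR 4.0.16 in R 4.3.3 (TMM normalization, default low-count filter, quasi-likelihood test, Benjamini-Hochberg adjustment over all genes tested). The level of a gene was its count over the library total and a TMM factor fitted on all 9 libraries. The quasi-likelihood test gives no standard error (SE). Each SE was therefore the absolute log2 fold change over the square root of the F value of the test. Each 95% interval extends a t quantile times this SE to either side, and both are approximate. Counts carry no molecular identifiers, so a floor of 3 counts covers counting error only. The alternatives were DESeq2 1.42.0, other filters and scalings, erythroid and platelet genes removed, a single fit of all libraries, the replicate number as a block, and fits that each left 1 library out.

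The 10 genes and the lists were chosen with earlier results of these data known. Besides them, the text names list genes that were DEGs in the brain or in the blood after stroke, otherwise the lowest adjusted p per role, and the 3 nearest profiles of Sqstm1. The test was tried on simulated counts with known changes before use. With a true fold of 2 it called 18.6% of changed genes in stroke brain versus stroke blood and 17.3% in stroke versus sham blood. In stroke brain versus sham blood it called 16.8%. With a true log2 fold change of 2 in either direction, the shares were 70.8%, 76.0% and 65.0% in the same order. The adjusted p depends on how many genes change, so these percentages need not hold in the real comparisons. A gene that did not pass may still have changed. Figures used Python 3.11.15 and matplotlib 3.10.9.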

Additional observations from a re-analysis of the deposited data

How the results depend on the processing

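Over the 10 genes, 128 of 150 values for stroke brain versus stroke blood, 125 of 150 for stroke versus sham blood and 127 of 150 for stroke brain versus sham blood kept their direction and their side of the threshold. The exceptions were 17 changes of sign and 5 lost calls in the first of these comparisons, 25 changes of sign in the second, and 6 changes of sign and 17 lost calls in the third. The median log2 fold change of all genes in stroke brain versus stroke blood moved from 0.06 to 0.22 with library size only and to -0.09 with upper-quartile scaling, and the share of calls that were higher moved from 57.2% to 69.2% and 45.5%. Against sham blood the median moved from 0.01 to 0.13 with library size only, and the share from 61.1% to 72.5%. Optn, with 13 to 127 counts per library, and Wipi1, with 84 to 211, had the fewest counts of the 10 genes.

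At an adjusted p below 0.01, 2089 genes changed and 1793 were DEGs in stroke brain versus stroke blood, 865 and 792 against sham blood, and 0 and 0 between stroke and sham blood with edgeR. In that last comparison, changed genes and DEGs numbered 191 and 127 with DESeq2 and 207 and 160 without the filter on low counts, and the cause was not tested. With 1 library left out, changed genes ranged from 2741 to 4147, DEGs from 2258 to 3014 and list genes from 9 to 18 in stroke brain versus stroke blood, from 0 to 16 for both counts between stroke and sham blood (16 without sham replicate 1, the library low in erythroid genes), and from 1434 to 2663, 1146 to 1883 and 6 to 13 against sham blood.

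The replicate numbers did not pair the libraries (correlations of deviations from -0.07 to 0.07), which share only a number. With the replicate number as a block, 3560, 1 and 2096 genes changed in the 3 comparisons (4035, 1 and 2572 without it). Under the block Map1lc3b did not pass in the brain against stroke blood (adjusted p = 0.0559) or sham blood (0.0537), and Gabarapl2 not against sham blood (0.0501). Not every library correlated best with its own number.

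Log2 fold changes that changed sign were as follows. For stroke brain versus stroke blood, Ulk1 was -0.0061 with DESeq2, -0.0027 without the filter, -0.017 with a mean of at least 50 counts, -0.027 with RLE, -0.15 with upper-quartile scaling, -0.039 in the single fit and -0.22 with the block. Map1lc3a was -0.067 with upper-quartile scaling, and Wipi1 was 0.087 with library size only. For stroke versus sham blood, a mean of at least 50 counts gave 0.0077 for Sqstm1, 0.013 for Map1lc3b and 0.017 for Gabarapl2, upper-quartile scaling gave 0.059, 0.064 and 0.072, and the single fit gave 0.016, 0.022 and 0.025. Gabarapl2 was 0.0048 with RLE and 0.023 with the block, and Map1lc3a -0.00017 with library size only. Becn1 was -0.013 against sham blood with upper-quartile scaling. With 1 library left out, the values ranged in stroke brain versus stroke blood from -0.047 to 0.26 for Map1lc3a, -0.71 to 0.38 for Ulk1 and -0.39 to 0.12 for Wipi1. Between stroke and sham blood they ranged from -0.14 to 0.080 for Sqstm1, -0.18 to 0.12 for Map1lc3a, -0.057 to 0.0024 for Map1lc3b, -0.20 to 0.16 for Gabarapl2, -0.91 to 0.33 for Optn, -0.060 to 0.52 for Ulk1 and -0.49 to 0.20 for Wipi1. Against sham blood they ranged from -0.17 to 0.34 for Gabarapl1, -0.080 to 1.15 for Optn, -0.034 to 0.11 for Becn1, -0.55 to 0.53 for Ulk1 and -0.58 to 0.13 for Wipi1.

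Without length scaling the ATG8 shares in sham blood, stroke blood and stroke brain were 2.31%, 2.23% and 3.71% for Map1lc3a, 40.0%, 37.5% and 41.9% for Map1lc3b and 46.6%, 50.1% and 43.5% for Gabarap. In the same order Gabarapl1 was at 1.41%, 1.19% and 2.34%, and Gabarapl2 at 9.70%, 8.98% and 8.56%.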
